A study of Mus musculus with 6 samples.

Results

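The 10 genes described here encode feedback inhibitors and core components of JAK-STAT signalling: Socs1, Socs2, Socs3 and Cish of the SOCS family, the Janus kinases Jak1, Jak2 and Tyk2, the transcription factors Stat3 and Stat6, and the interferon-gamma receptor chain Ifngr1. They were taken by gene name from a deposited table of 54532 genes, and all 10 were present. Cytokine receptors without kinase activity of their own carry Janus kinases, which phosphorylate STAT proteins once the cytokine binds, and the STATs then enter the nucleus and induce genes, the SOCS genes among them. SOCS proteins act back on this chain, either by blocking the kinases or by occupying receptor sites, and recruit a ubiquitin ligase through the SOCS box. In macrophages SOCS1 is known as a brake on interferon-gamma signalling and SOCS3 as a brake on signalling through the IL-6 receptor chain gp130.

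NSUN2-KO bone marrow-derived macrophages of the mouse, in 3 libraries, were compared with NC bone marrow-derived macrophages, also in 3 libraries. Macrophages of this kind are grown in culture from marrow progenitors. NSUN2 methylates cytosines in RNA, chiefly in tRNAs. Both groups had been brought to the inflammatory M1 state with LPS and interferon-gamma, so every level below is that of a stimulated cell. The labels do not say how the knockout was made, what NC stands for, which animal each library came from or how long the cells were stimulated. The comparison bears on loss of NSUN2 in the M1 state, but the groups also differed in sex-linked transcripts, given below.

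The files held FPKM, that is fragments scaled for gene length and library size, from which 35019033 to 45636131 reads per library were recovered. Nsun2 itself measured 0.967, 1.36 and 0.863 FPKM in the NSUN2-KO libraries, against 1.88, 2.04 and 1.84 FPKM in the NC libraries, and the knockout mean was 55.4% of the NC mean (limma adjusted p = 0.0228, and exact two-sided permutation p = 0.1, the smallest that 3 against 3 libraries allow). That call was lost without any 1 library other than NSUN2-KO replicate 2 (adjusted p up to 0.0848), and with no filter on low values (adjusted p = 0.113). Macrophage markers were present in every library. The summed level of 8 markers was 3368 to 3409 FPKM in NSUN2-KO and 3929 to 4018 FPKM in NC. Most of that gap lay in Lyz2, with a mean of 1163 FPKM in NSUN2-KO and 1736 FPKM in NC. At the threshold used below 1 marker, Cd14, was higher and 3, Lyz2, Cd68 and Fcgr1, were lower. Csf1r, Adgre1, Itgam and Mertk were not called. Over all tested genes 4.19% were called higher and 4.3% lower. Of 12 neutrophil markers 6 were tested. Of these 1, Lcn2, was higher and 3, Csf3r, Mmp8 and S100a9, were lower. The summed level of the 12 was 168 to 179.7 FPKM in NSUN2-KO and 179.4 to 185 FPKM in NC. Lcn2 held the largest part of it, with a mean of 92.2 FPKM in NSUN2-KO and 77.2 FPKM in NC. Elane and Retnlg were at 0 in every library. Of 8 dendritic cell markers 2 were tested and 1, Ccr7, was higher, with a summed level of 8.87 to 10.1 FPKM in NSUN2-KO and 5.41 to 6.63 FPKM in NC. The T and NK cell, B cell, mast cell and basophil, and stromal markers were each below 1 FPKM in every library, with Cd3e, Cd3g, Cd2, Mcpt8 and Fcer1a at 0. Ddx3y, Eif2s3y, Uty and Kdm5d of the Y chromosome had 0 reads in every NSUN2-KO library and at least 316 reads in every NC library, and Xist measured 29.4 to 31.8 FPKM in NSUN2-KO and 14.0 to 15.5 FPKM in NC. None of the 10 genes lies on a sex chromosome. The sex-linked difference ran with the groups in every library, so its part in the results below cannot be told apart from that of NSUN2. The part of the marker differences was not tested. In bulk RNA a difference in the share of cells that express a gene and one in its level per cell cannot be told apart.

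Jak2 was the only gene of this set with a called change. It was 15.9% higher in NSUN2-KO, and none of the other 8 tested genes passed the threshold in either direction. Socs3 and Stat6 lay lower and Jak1 and Stat3 higher in all 3 NSUN2-KO libraries than in any NC library, by less than the Jak2 difference, without passing it. The test was limma on log2(FPKM + 1) over the 9443 genes that averaged 1 FPKM or more, and a change was called at a Benjamini-Hochberg adjusted p below 0.05. Socs2 did not reach 1 FPKM and was not tested. The 1 call among 9 tested genes stands beside a background of 8.49% of all tested genes called (4.19% higher and 4.3% lower). An unadjusted p below 0.05 was found for 4 of the 9, against 25.5% of all tested genes. Groups that did not overlap were seen in 5 of the 9, against 31.1% of all tested genes. The median log2 fold change of the 9 genes was -0.05, and that of all tested genes was -0.01. The median of the 9 turned to 0.01, with 6 of 9 positive in place of 3, when the trends over GC content and gene length were removed.

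**Figure D1:**
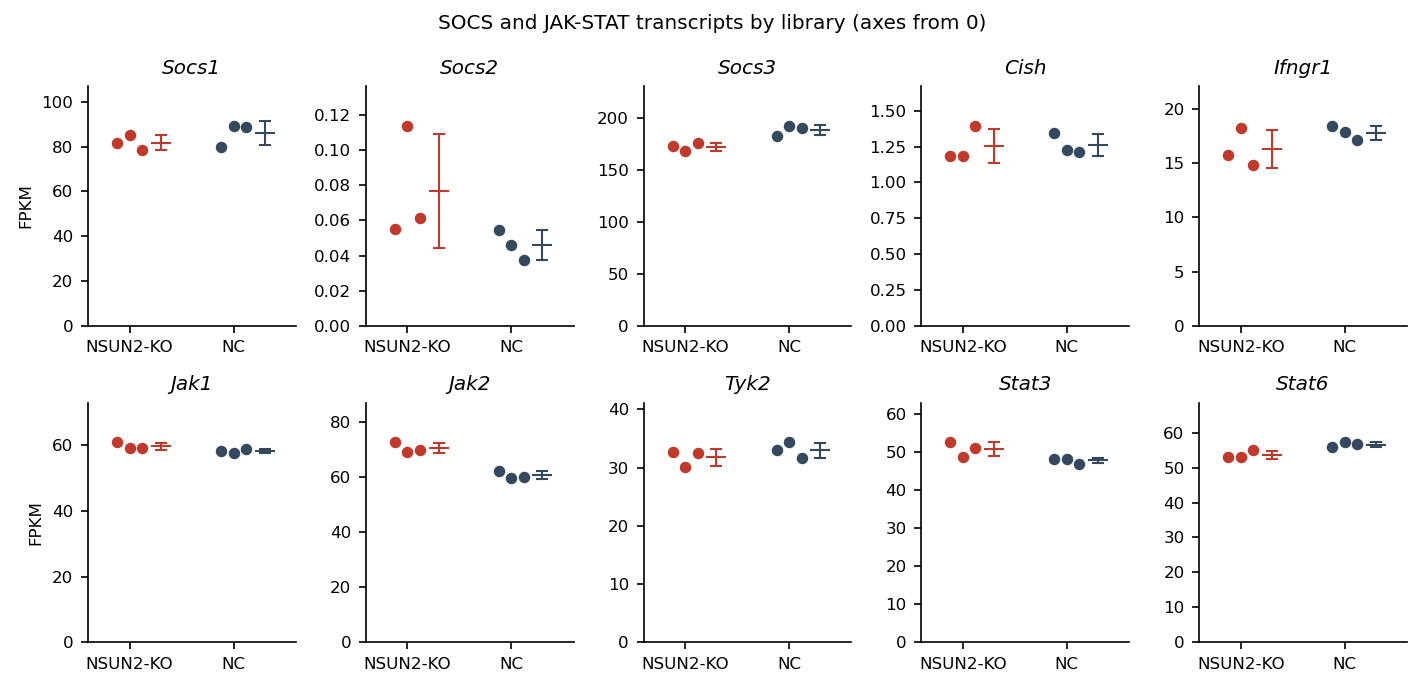
FPKM (vertical axes, from 0) of each of the 10 genes in the 3 NSUN2-KO libraries (left, red) and the 3 NC libraries (right, dark), with the group mean and SD beside the points. Jak2 shows the clearest separation, at 69.2 to 72.7 FPKM in NSUN2-KO against 60.0 to 62.5 FPKM in NC, whereas Socs1, Cish, Tyk2 and Ifngr1 overlap.

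Among the inhibitors, Socs3 was the most abundant of all 10 genes. Socs3 (ENSMUSG00000053113, GRCm38 chromosome 11, 117966079 to 117970047, minus strand) measured 173, 169 and 176 FPKM in the NSUN2-KO libraries, against 183, 193 and 190.4 FPKM in the NC libraries. All 3 NSUN2-KO values were below the lowest NC value. The means were 172.5 ± 3.70 FPKM in NSUN2-KO and 188.6 ± 5.15 FPKM in NC (SD, n = 3 each), a log2 fold change of -0.13 (SE 0.03) whose limma adjusted p of 0.0516 missed the threshold. The 95% interval of the difference ran from -13.1% to -3.57%. Socs3 passed the threshold when genes with a mean under 5 FPKM were left out (adjusted p = 0.0342), with limma voom on the recovered reads (adjusted p = 0.0171) and without NC replicate 1 (adjusted p = 0.0464). It did not in the other 13 of 16 alternatives (adjusted p up to 0.239).

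Socs1, which binds and inhibits the Janus kinases, did not separate the groups. Socs1 (ENSMUSG00000038037, chromosome 16, 10782240 to 10785536, minus strand) measured 81.7, 85.3 and 78.5 FPKM in NSUN2-KO, against 79.9, 89.2 and 89.0 FPKM in NC. NC replicate 1 lay among the NSUN2-KO values and the other NC libraries lay above them. The log2 fold change was -0.07 (SE 0.05, limma adjusted p = 0.444), with a 95% interval from -12.3% to 3.45%. The ratio of Socs3 to Socs1 FPKM also overlapped between the groups, at 1.98 to 2.24 in NSUN2-KO and 2.14 to 2.29 in NC. Socs3 made up 66.0% to 68.7% of the summed FPKM of the 4 SOCS family genes in NSUN2-KO and 67.9% to 69.2% in NC.

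Cish, whose product CIS was the first SOCS protein to be described and is a classical STAT5-induced gene, was low, with overlapping groups. Cish (ENSMUSG00000032578, chromosome 9, 107296026 to 107302784, plus strand) measured 1.19, 1.19 and 1.39 FPKM in NSUN2-KO, against 1.35, 1.22 and 1.21 FPKM in NC, on 267 to 360 reads per library. The highest and the lowest of the 6 values were both NSUN2-KO libraries. Its log2 fold change was -0.0040 (SE 0.08, limma adjusted p = 0.981), and the 95% interval, from -11.9% to 12.8%, leaves room for a difference as large as that of Socs3. The loci Gm17040 and Gm17041 overlap Cish on the other strand, with at most 14 and 0 reads in any library. The sources used here do not give the strand setting of the counting.

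Socs2, an inhibitor best known for restraining growth hormone signalling, was close to undetected. Socs2 (ENSMUSG00000020027, chromosome 10, 95385362 to 95417180, minus strand) measured 0.0548, 0.114 and 0.0615 FPKM in NSUN2-KO, against 0.0543, 0.0458 and 0.0375 FPKM in NC. These values rest on 21, 38 and 22 reads in NSUN2-KO and 20, 20 and 14 reads in NC. NSUN2-KO replicate 2 was the highest, with an exact Poisson 95% interval of 26.9 to 52.2 reads, which overlaps those of all other libraries except NC replicate 3 (7.65 to 23.5 reads). Such intervals leave out amplification and library variation, and they are not scaled for library size. NSUN2-KO replicate 2 had 35019033 reads in all and NC replicate 2 had 45636131, so overlap in reads need not mean overlap in FPKM. With no filter on low values its adjusted p was 0.615.

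The start regions of the inhibitor genes are shown because STAT dimers bind the GAS form TTCNNNGAA, and interferon-activated factors bind repeats of GAAA. RefSeq promoter windows of 300 bases (250 before and 50 after the annotated start, GRCm38.p6) were found for 9 of the 10 genes, all but Socs2. They were searched on both strands for TTCNNNGAA, for the same half-sites TTC and GAA with 4 bases between them, and for a pair of GAAA with 2 bases between them. The GAS form occurred in 2 of the 9 windows, those of Socs3 and Cish, and in 8.29% of all 32817 promoter windows. The GAAA pair occurred in the Socs1 window only, and in 3.43% of all windows. The form with 4 bases between was in none of the 9, and in 6.94% of all windows. For Socs3 the 29 bases around the match are chr11:117969502-117969530 (minus strand), and for Cish the 30 bases around both matches are chr9:107296654-107296683 (plus strand), with the matches in capitals. In Socs1 the capitals mark 2 overlapping matches of the GAAA pair within the 250 bases before its start, chr16:10785537-10785786 (minus strand).
Socs3: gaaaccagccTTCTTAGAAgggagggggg
Cish: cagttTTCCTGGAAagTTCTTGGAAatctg
Socs1: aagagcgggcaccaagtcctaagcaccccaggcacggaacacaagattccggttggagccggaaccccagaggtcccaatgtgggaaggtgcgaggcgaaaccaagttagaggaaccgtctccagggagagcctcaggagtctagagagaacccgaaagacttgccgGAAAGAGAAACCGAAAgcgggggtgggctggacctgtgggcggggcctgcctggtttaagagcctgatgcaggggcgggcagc
The Cish matches begin at the RefSeq start itself (bases 1 to 9 and 12 to 20 of the transcript), and the Socs3 match lies 146 to 154 bases before its start. The deposited table has both genes begin further upstream, so these 2 windows lie inside the counted gene bodies. A match of letters is a description of the window and says nothing of binding in these cells.

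Among the kinases, Jak2 rose, and Jak1 and Tyk2 did not pass the threshold. Jak2 binds the receptor chains of interferon-gamma (IFNGR2), GM-CSF and IL-12 family cytokines. Jak2 (ENSMUSG00000024789, chromosome 19, 29251828 to 29313080, plus strand) measured 72.7, 69.2 and 69.9 FPKM in NSUN2-KO, against 62.5, 60.0 and 60.2 FPKM in NC. Every NSUN2-KO library exceeded every NC library by more than the whole range of either group. The means were 70.6 ± 1.87 FPKM in NSUN2-KO and 60.9 ± 1.40 FPKM in NC (SD, n = 3 each), with a log2 fold change of 0.21 (SE 0.03, limma adjusted p = 0.0111) and a 95% interval from 9.53% to 22.1%. Between 11855 and 14696 reads per library stand behind these values, and no other annotated gene overlaps Jak2. Jak2 ranked 241 of 9443 tested genes by p, but 303 of the 396 genes called higher by size of the log2 fold change. The call was lost without NSUN2-KO replicate 1 (adjusted p = 0.0581) and without NC replicate 3 (adjusted p = 0.0588), with the log2 fold change at 0.19 and 0.20, and was kept in the other 14 of 16 alternatives. None of the searched motifs occurred in the Jak2 window. The 250 bases before the Jak2 start are shown because Jak2 was the only gene of the set called. They are chr19:29251553-29251802 (plus strand), and the whole window has 81.0% G and C.
Jak2: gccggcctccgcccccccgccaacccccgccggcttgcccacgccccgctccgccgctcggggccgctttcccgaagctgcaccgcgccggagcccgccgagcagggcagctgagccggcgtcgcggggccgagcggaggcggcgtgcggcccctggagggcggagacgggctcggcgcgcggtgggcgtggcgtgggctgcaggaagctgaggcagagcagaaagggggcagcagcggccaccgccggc

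Jak1, the kinase shared by interferon and gp130 receptors, measured 60.8, 59.0 and 59.0 FPKM in NSUN2-KO, against 58.1, 57.5 and 58.7 FPKM in NC (ENSMUSG00000028530, chromosome 4, 101152367 to 101265282, minus strand). The groups did not overlap, but the nearest values were 59.0 FPKM in NSUN2-KO and 58.7 FPKM in NC. Its log2 fold change was 0.04 (SE 0.03, limma adjusted p = 0.509), with a 95% interval from -2.32% to 7.50%. Tyk2, which serves the type I interferon and IL-12 receptors, measured 32.7, 30.1 and 32.6 FPKM in NSUN2-KO, against 33.0, 34.3 and 31.7 FPKM in NC (ENSMUSG00000032175, chromosome 9, 21104068 to 21131243, minus strand). The groups overlapped, with a log2 fold change of -0.05 (SE 0.05, limma adjusted p = 0.526) and a 95% interval from -10.4% to 3.81%. An antisense gene, 1700084C06Rik, covers 24326 bases of the Tyk2 locus but had 0 reads in every library.

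Ratios within a library do not depend on how libraries are scaled to each other. Trends over GC content and gene length, described below, were not removed from them. Jak2 stood at 1.20, 1.17 and 1.18 times Jak1 in NSUN2-KO, against 1.08, 1.04 and 1.02 times Jak1 in NC. Jak2 made up 43.3% to 43.7% of the summed FPKM of the 3 kinases in NSUN2-KO and 39.5% to 40.7% in NC. The ratio of Socs3 to Jak2 was 2.38 to 2.52 in NSUN2-KO and 2.92 to 3.21 in NC, without overlap. These ratios were chosen after the values of the genes were known and carry no test.

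**Figure D2:**
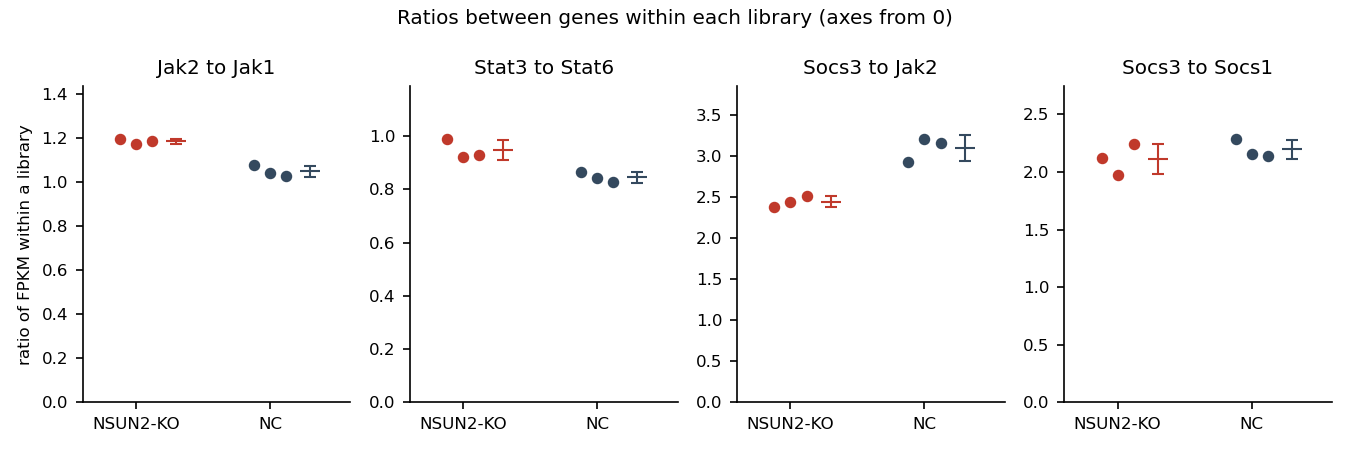
Ratios of FPKM between pairs of genes within each library (vertical axes, from 0), NSUN2-KO on the left and NC on the right, with the group mean and SD. The ratios of Jak2 to Jak1, Stat3 to Stat6 and Socs3 to Jak2 separate the groups, and the ratio of Socs3 to Socs1 does not.

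Of the transcription factors, Stat3 had a positive and Stat6 a negative log2 fold change, neither past the threshold. Stat3 relays IL-6 and IL-10 signals, and its gene (ENSMUSG00000004040, chromosome 11, 100885098 to 100939540, minus strand) measured 52.5, 48.8 and 51.0 FPKM in NSUN2-KO, against 48.2, 48.2 and 46.9 FPKM in NC. The groups did not overlap, though NSUN2-KO replicate 2 was close to the NC values. Its log2 fold change was 0.09 (SE 0.04, limma adjusted p = 0.192), with a 95% interval from 0.0537% to 12.5%. Stat6 relays IL-4 and IL-13 signals, and its gene (ENSMUSG00000002147, chromosome 10, 127642986 to 127660957, plus strand) measured 53.0, 52.9 and 55.0 FPKM in NSUN2-KO, against 55.7, 57.2 and 56.8 FPKM in NC. All 3 NSUN2-KO values were below the NC values, with a log2 fold change of -0.08 (SE 0.03, limma adjusted p = 0.179) and a 95% interval from -9.75% to -0.212%. The ratio of Stat3 to Stat6 was 0.922 to 0.990 in NSUN2-KO and 0.826 to 0.866 in NC. Stat3 shares 72 bases at its end with Stat5a on the other strand, and Stat6 shares 40 bases with Nab2, with means of 2.38 FPKM for Stat5a and 2.52 FPKM for Nab2 over the 6 libraries.

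Ifngr1, the chain that binds interferon-gamma, varied more among the NSUN2-KO libraries than among the NC libraries. Ifngr1 (ENSMUSG00000020009, chromosome 10, 19591949 to 19610229, plus strand) measured 15.8, 18.2 and 14.8 FPKM in NSUN2-KO, against 18.4, 17.9 and 17.1 FPKM in NC. NSUN2-KO replicate 2 lay within the NC range and the others below it. The SD was 10.7% of the mean in NSUN2-KO and 3.70% in NC. Its log2 fold change was -0.13 (SE 0.07, limma adjusted p = 0.314), with a 95% interval from -18.2% to 2.63%, and without NSUN2-KO replicate 2 it was -0.21 (adjusted p = 0.0688). The partner chain Ifngr2 measured 49.1 ± 1.03 FPKM in NSUN2-KO and 51.1 ± 1.56 FPKM in NC (SD, n = 3 each, limma adjusted p = 0.373), and the ratio of Ifngr1 to Ifngr2 overlapped, at 0.309 to 0.367 in NSUN2-KO and 0.324 to 0.369 in NC.

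The order of the 10 genes by FPKM, a per-length scale, was the same in both groups: Socs3, Socs1, Jak2, Jak1, Stat6, Stat3, Tyk2, Ifngr1, Cish and Socs2. No neighbours in that order overlapped within a group, although Jak1 and Stat6 were close in NC (57.5 to 58.7 and 55.7 to 57.2 FPKM). Across the 6 libraries Socs3 and Stat6 varied together most closely of the 36 pairs of tested genes (Pearson r = 0.96), and Socs3 and Jak2 most oppositely (r = -0.92). Both correlations include the difference between the groups and describe 6 libraries only. Among the 3 protein-coding genes whose log2 levels followed Socs3 most closely were Midn and Ppip5k1 (r = 0.994 and 0.993), and 195 of 8520 genes reached r of 0.95 or more. Those closest to Socs1 were Hexa, Pxmp4 and Rps6kb2 (r = 0.986, 0.983 and 0.983), and those closest to Cish were Syne3, Ndufa9 and Edem1 (r = 0.98, 0.972 and 0.963).

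Base composition moved with the differences. Log2 fold change and GC content were negatively related across 9433 tested genes with a known transcript (Spearman rho = -0.374, over genes, which are no replicates of a condition). Jak2, at 44.3% GC, had the lowest GC content of the 9 tested genes, and Socs1 and Socs3, at 58.8% and 58.7%, the highest. After removal of the trend of each library with GC content and gene length, Jak2 kept its call at a log2 fold change of 0.18 (limma adjusted p = 0.011). Socs3 moved to -0.04 (adjusted p = 0.239), and Stat3 to 0.11 (adjusted p = 0.0504). Socs1, Tyk2 and Cish, none of them called, changed sign under this setting, Socs1 and Tyk2 to 0.01 and Cish to 0.04.

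**Figure D3:**
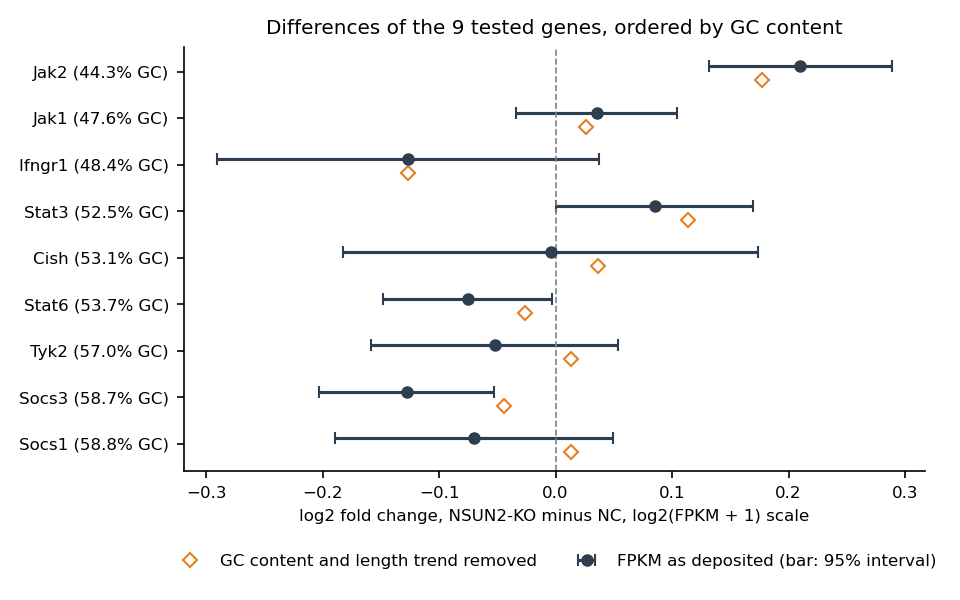
Log2 fold change of the 9 tested genes, NSUN2-KO minus NC (horizontal axis), ordered from the lowest GC content at the top to the highest at the bottom. Filled circles with 95% intervals are from FPKM as deposited and open diamonds are with the trends over GC content and length removed. Jak2 stays at 0.18, and the diamonds of Socs3, Socs1, Tyk2 and Stat6 lie nearer to 0 or past it.

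The rest of the pathway was read from lists of receptors, ligands, kinases and STATs, inhibitors and SOCS box partners. In these lists 12 of 63 tested genes were called, 6 higher and 6 lower, against the background of 8.49% called. The receptor list, whose chains carry the Janus kinases, was mostly lower: 5 of 23 tested receptors fell, 1 rose, and 19 had a negative log2 fold change, with a median of -0.13 beside -0.01 over all tested genes. Csf3r, the G-CSF receptor, fell to 20.5 ± 0.32 FPKM in NSUN2-KO, against 29.4 ± 0.80 FPKM in NC. It is also a neutrophil marker, listed above. Il4ra, which signals through STAT6, fell to 120.6 ± 3.78 FPKM in NSUN2-KO, against 167.5 ± 4.07 FPKM in NC. Il6st, which encodes gp130, the receptor chain to which SOCS3 binds, fell to 6.87 ± 0.135 FPKM in NSUN2-KO, against 8.17 ± 0.110 FPKM in NC (log2 fold change -0.22, limma adjusted p = 0.0201). The Il6st call was lost with the replicate number as a block and without any 1 library other than NC replicate 1 (adjusted p up to 0.0779). The other 2 receptors that fell were Il12rb1 and Il6ra, named after their values were seen. Il23r rose to 9.09 ± 0.420 FPKM in NSUN2-KO, against 6.03 ± 0.101 FPKM in NC (log2 fold change 0.52, limma adjusted p = 0.00107). The count of receptors that fell was 2 when NSUN2-KO replicate 1 or 2 or NC replicate 2 or 3 was left out, 3 with no filter, and 8 with limma voom or with genes under 5 FPKM left out. With the trends over GC content and length removed it was 6, and 21 of 23 receptors had a negative log2 fold change.

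Of 10 tested ligands 4 rose and none fell at the threshold, in limma over all genes, and 7 had an unadjusted p below 0.05. Il27, Ebi3 and Ifnb1, named after their values were seen, were among those 7 and were lower in NSUN2-KO. Of the 10 log2 fold changes 5 were positive and 5 negative, with a median of 0.01. Over all tested genes 4.19% were called higher and 25.5% had an unadjusted p below 0.05. Il6, a ligand of gp130, had 9.34 ± 1.27 FPKM in NSUN2-KO and 4.37 ± 0.33 FPKM in NC. The others that rose were Il12b, which encodes p40 of the IL-12 heterodimer, Csf3 and Il15. Il15 rose to 83.5 ± 3.10 FPKM in NSUN2-KO, against 72.5 ± 2.32 FPKM in NC, and Csf3 to 3.49 ± 0.565 FPKM in NSUN2-KO, against 1.96 ± 0.455 FPKM in NC. Il10, the cytokine that acts through STAT3 in macrophages and is named here with its values already known, measured 8.28 ± 0.97 FPKM in NSUN2-KO and 7.83 ± 1.02 FPKM in NC (adjusted p = 0.707). The number of ligands that rose was 2 when NSUN2-KO replicate 1 or 2 or NC replicate 1 was left out and 2 with no filter, and without NC replicate 1 there was also 1 that fell.

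None of the other 6 tested kinases and STATs with Irf9 passed the threshold, beside 8.49% of all tested genes. An unadjusted p below 0.05 was found for 2 of the 6, against 25.5% of all tested genes. These were Jak3 and Stat5b, named after their values were seen. Jak3 measured 8.50 ± 0.494 FPKM in NSUN2-KO and 10.2 ± 0.947 FPKM in NC (limma adjusted p = 0.0877). Stat5b measured 10.1 ± 0.119 FPKM in NSUN2-KO and 11.4 ± 0.614 FPKM in NC (limma adjusted p = 0.0966). Stat2 measured 177.7 ± 7.89 FPKM in NSUN2-KO and 185.3 ± 3.67 FPKM in NC (limma adjusted p = 0.37). With limma voom 2 genes of this list fell, and without NC replicate 1 there was 1. Of 17 other inhibitors 1 rose and 1 fell, beside 4.19% of all tested genes called higher and 4.3% called lower. Usp18, which displaces JAK1 from the type I interferon receptor, rose to 169.2 ± 5.57 FPKM in NSUN2-KO, against 152.1 ± 1.57 FPKM in NC (log2 fold change 0.15, limma adjusted p = 0.0291). Sh2b3, the adaptor LNK that restrains JAK2, fell to 12.8 ± 0.13 FPKM in NSUN2-KO, against 15.1 ± 0.44 FPKM in NC (log2 fold change -0.21, limma adjusted p = 0.0168). Sh2b3 lost its call with the trends over GC content and length removed and without NSUN2-KO replicate 1, NC replicate 2 or NC replicate 3, and Usp18 without any 1 library other than NSUN2-KO replicate 3. The 4 SOCS genes outside the set, Socs4, Socs5, Socs6 and Socs7, were all tested and none was called, and they are named here with their values already known. The SOCS box partners, which join SOCS proteins to the ubiquitin ligase, showed no call and no unadjusted p below 0.05 among 7 tested genes, with limma voom also calling 0. The most abundant were Elob, at 36.6 ± 3.45 FPKM in NSUN2-KO and 36.2 ± 3.66 FPKM in NC, and Rnf7, at 28.6 ± 1.33 FPKM in NSUN2-KO and 28.7 ± 1.46 FPKM in NC.

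**Figure D4:**
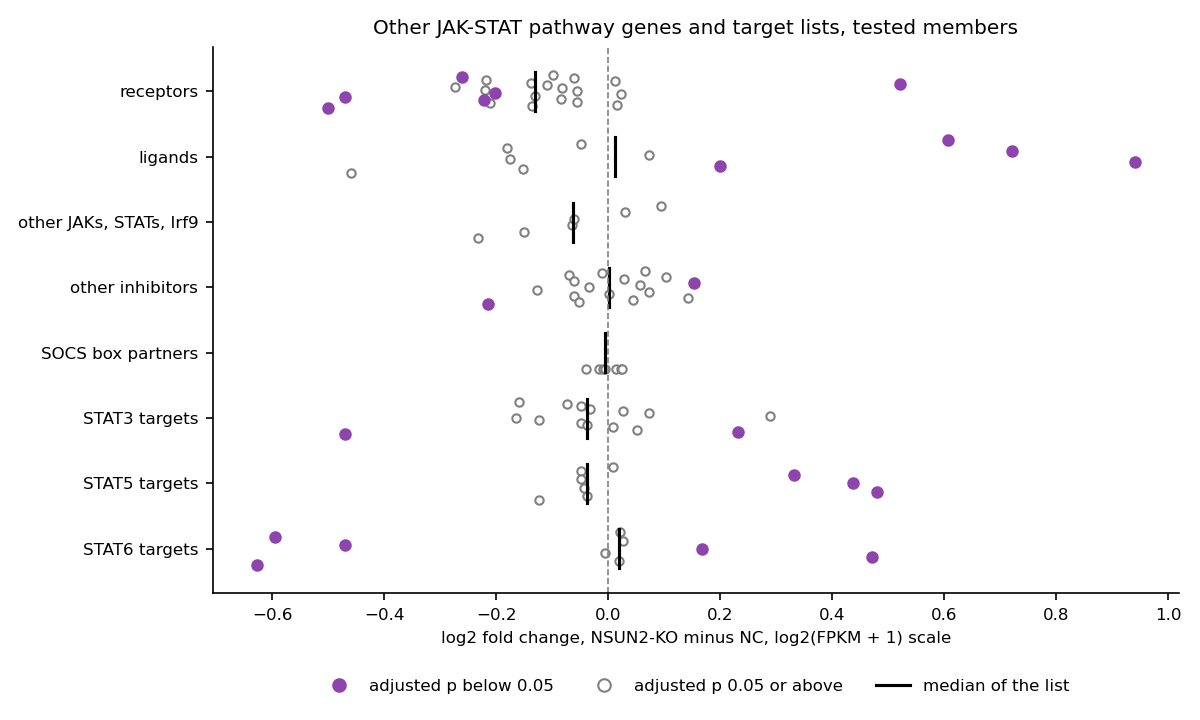
Log2 fold change, NSUN2-KO minus NC (horizontal axis), of each tested gene of the pathway lists and of the STAT3, STAT5 and STAT6 target lists (rows). Filled points have a limma adjusted p below 0.05, open points do not, and the bar is the list's median. Receptors lie mostly to the left of 0, with 19 of 23 negative, while the SOCS box partners lie between -0.04 and 0.02.

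Irf1 and Cxcl9, both strongly induced by interferon-gamma, did not pass the threshold: Irf1 measured 259.6 ± 3.84 FPKM in NSUN2-KO and 262.4 ± 2.97 FPKM in NC, and Cxcl9 873.3 ± 60.8 FPKM in NSUN2-KO and 904.1 ± 37.9 FPKM in NC (limma adjusted p = 0.767 and 0.606).

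The target lists below stand beside a background of 4.19% of all tested genes called higher and 4.3% called lower. Of 15 tested STAT3 targets, Vegfa rose to 23.3 ± 0.70 FPKM in NSUN2-KO, against 19.7 ± 0.60 FPKM in NC (limma adjusted p = 0.0144), and Il4ra fell. The Vegfa call was lost without NSUN2-KO replicate 1 or NC replicate 2. Of 9 tested STAT5 targets 3 rose, Id1, Id2 and Ccnd2, and the classical target Cish, described above and not counted among the 9, did not pass. Id2, an inhibitor of helix-loop-helix factors, rose to 45.2 ± 4.16 FPKM in NSUN2-KO, against 33.0 ± 0.33 FPKM in NC, and Ccnd2, a D-type cyclin, to 9.35 ± 0.53 FPKM in NSUN2-KO, against 7.22 ± 0.23 FPKM in NC (limma adjusted p = 0.00696 and 0.0104). This count stayed at 3 in each fit without 1 library and was 1 with no filter. Of 9 tested STAT6 targets 2 rose and 3 fell: Mrc1 fell to 1.94 ± 0.23 FPKM in NSUN2-KO, against 3.44 ± 0.17 FPKM in NC, while Ccl22 rose to 2.12 ± 0.26 FPKM in NSUN2-KO, against 1.25 ± 0.21 FPKM in NC. Il4ra, the same call as among the receptors and STAT3 targets, and Ccl24, named after its values were seen, were the others that fell. Arg1 was the other that rose. The Ccl24 call was lost with no filter, with the replicate block and without any 1 library other than NC replicate 2. Arg1 and Ccl22 lost their calls with the replicate block. The count of STAT6 targets that rose was 0 when NSUN2-KO replicate 1 or NC replicate 2 was left out, and 0 with no filter. It was 1 without NSUN2-KO replicate 2, NC replicate 1 or NC replicate 3.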

How the data were processed

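The values are FPKM, which the authors deposited for 6 libraries. The submitters' processing notes name HISAT2 2.0.5, DESeq2 1.20.0, fastp, CASAVA 1.8 and featureCounts 1.5.0-p3, with GRCm38 (mm10). The sources used here give neither their settings nor the annotation release or strandedness. The design text gives 3 biological replicates per group and elsewhere a smaller number. Gene lengths are another column of the deposited table. FPKM times length came out as whole multiples of 1 step per library for 100% of values above 0 (tolerance 0.01 reads), which gave the reads.

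The comparison used limma 3.58.1 under R 4.3.3, on values of log2(FPKM + 1), which understates changes of low genes, with a mean-variance trend, no covariate and a minimum mean of 1 FPKM. P-values were Benjamini-Hochberg adjusted over 9443 genes, and the fit was tested on simulated reads. P-values measure the spread between the libraries. No libraries were duplicates: the mean chi-square per gene was 5.67 to 11.6 within groups. Alternatives were other pseudocounts, filters and scalings, limma voom with TMM, no trend, the replicate number as a block, removal of GC content and length trends (GENCODE vM21 transcripts, loess span 0.5), and each library left out. The genes and lists were chosen with earlier results of these data known. Named genes were the 10 genes, up to 4 called genes of each list by smallest p (the 2 most abundant where none was called), Stat2, Ifngr2, Irf1, Cxcl9 and the 3 genes most like each tested SOCS gene. Promoter sequences are RefSeq's (GRCm38.p6). Python 3.11.15 with pandas 2.3.3 was used. Some results, 1 target list among them, are not reported here.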

Additional observations from a re-analysis of the deposited data

How the results depend on the processing

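Jak2 stayed positive in all 16 alternatives, with a log2 fold change of 0.18 to 0.23. The number of the 10 genes called was 2 with genes under 5 FPKM left out or with limma voom, Socs3 being the second, and 0 to 2 when 1 library was left out. Of the 105 tested genes on the other lists, the unreported target list included, 25 were called, beside 8.49% of all tested genes. The count was 10 with no filter, 14 with the replicate block and 11 to 23 without 1 library. Over all genes 802 were called, against 265 with no filter, 526 without the trend, 1382 with limma voom and 270 to 595 without 1 library. Same-numbered libraries did not deviate together (correlations -0.0095, -0.030 and 0.0034), so the numbers did not pair them, and the replicate block gave 351 calls. Nsun2 kept a log2 fold change of -0.51 with no filter, where its call was lost, and -0.61 to -0.44 without 1 library. Small uncalled differences changed sign: with the GC content and length trend removed Socs1 was 0.0136, Cish 0.0364, Tyk2 0.0132 and Irf1 0.0272. Cish was 0.0014 with TPM and -0.0477 to 0.0232 without 1 library, and Cxcl9 was -0.10 to 0.000794 without 1 library. The causes were not tested. With 3 libraries per group, the 95% intervals of Socs1, Cish, Jak1, Tyk2 and Ifngr1 include 0, and Socs2 was too low to compare.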
